A study of Mus musculus with 9 samples.

Results

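The epidermal growth factor (EGF) family was followed in mouse cells after ectopic expression of *CRX*, a homeobox gene, from a metatherian or a eutherian mammal. The group holds 10 of the 22068 genes in the count table and was chosen by gene symbol alone. It comprises the ligands *Hbegf*, *Areg*, *Ereg*, *Tgfa*, *Btc* and *Nrg1*, the receptors *Egfr*, *Erbb2* and *Erbb3*, and the protease *Adam17*.

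Primary fibroblasts from C57Bl/6 mouse embryos (MEFs), a connective tissue cell grown in culture, were used at passage 2. All 3 groups were electroporated with a plasmid that carried a puromycin resistance gene. In the metatherian *CRX* group it also carried opossum *CRX* with a V5 tag, in the eutherian *CRX* group human *CRX* with the same tag, and in the control group no homeobox gene was added. Each group has 3 poly-A RNA-seq libraries, taken after 5 days in puromycin. The labels give 48 h of recovery after selection, whereas the study's methods place that recovery before it and give an overnight culture after it. The age and sex of the embryos and the promoter that drives each transgene are not given in the sources used here. A selected culture is a mixture of transfected cells, and in bulk RNA fewer cells of a type and less RNA per cell cannot be told apart.

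EGF family ligands are made as precursors anchored in the plasma membrane and are released by proteases, chiefly ADAM17. The released ligands bind receptors of the ErbB family, which pair up and signal through Ras, the MAP kinases and PI3 kinase. In fibroblasts the EGF receptor is a classical mitogen receptor, and in the mouse uterus heparin-binding EGF-like growth factor, the product of *Hbegf*, is known for its role in the dialogue between the blastocyst and the uterus at implantation.

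Depth lay between 54145701 and 94699657 counts per library. Values are CPM, counts divided by the library total and set to a common scale with edgeR's TMM factors, unless FPKM is named, which also divides by exon length. Reads counted as mouse *Crx* numbered 313 to 995 with eutherian *CRX*, 0 in each control library and 4, 0 and 0 with metatherian *CRX*, so that the level of the opossum transgene was not read from this table. *Vim*, a mesenchymal filament, stood between 3884 and 5648 CPM in all 9 libraries, and all 9 fibroblast markers passed the level filter. Their summed level was 24997 to 33042 CPM in control, 7993 to 23478 with eutherian *CRX* and 8853 to 18899 with metatherian *CRX*. Among them the collagen genes fell most in CPM, with *Col1a1* means of 8983, 4561 and 3678 in these groups. *Pdgfra* went the other way, with means of 232, 274 and 344 CPM, and *S100a4* had means of 673, 549 and 798 CPM. The other markers had lower means in both *CRX* groups than in control. Replicate 3 stood apart from replicates 1 and 2 in every group, and most with eutherian *CRX*. On the first principal component, which held 56.0% of the variance, replicates 1, 2 and 3 lay at -32.3, -21.4 and 6.82 in control, at -27.4, -30.9 and 55.0 with eutherian *CRX*, and at 0.69, 12.7 and 36.9 with metatherian *CRX*. Many of the values that move with eutherian *CRX* replicate 3 are also given without it.

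*Areg* and *Btc* had the highest fitted fold changes of the 10 genes with metatherian *CRX*, and they lie in the same ligand cluster on chromosome 5. In mm10 that cluster runs from *Epgn* (chr5:91027517-91035212) through *Ereg* (chr5:91074617-91093649) and *Areg* (chr5:91139615-91148432) to *Btc* (chr5:91357261-91402994), over 375 kb. Log2 CPM of *Areg* and *Btc* correlated at r = 0.95 over the 9 libraries, which share their depth and scaling, whereas *Areg* and *Ereg*, the closer neighbours at 46.0 kb, gave r = 0.25. The 250 bases upstream of the start of *Areg* and of *Btc* are printed for this reason, from RefSeq on GRCm38.p6. RefSeq starts *Areg* a few bases before the annotation behind the gene coordinates given above, and positions in the window count from the RefSeq start. The *Areg* window is chr5:91139349-91139598 on the plus strand and the *Btc* window chr5:91402995-91403244 on the minus strand, and capitals mark a cyclic AMP response element (CRE).
Areg: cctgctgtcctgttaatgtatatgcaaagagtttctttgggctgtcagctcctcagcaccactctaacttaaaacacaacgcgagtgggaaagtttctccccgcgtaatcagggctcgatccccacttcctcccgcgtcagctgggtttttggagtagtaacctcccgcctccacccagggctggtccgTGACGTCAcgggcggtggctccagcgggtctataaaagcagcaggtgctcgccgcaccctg
Btc: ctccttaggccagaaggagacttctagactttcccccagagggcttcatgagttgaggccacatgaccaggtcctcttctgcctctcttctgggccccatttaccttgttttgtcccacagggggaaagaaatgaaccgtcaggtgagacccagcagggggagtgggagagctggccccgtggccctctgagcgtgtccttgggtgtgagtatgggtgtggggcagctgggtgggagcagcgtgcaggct
The CRE, with the letters TGACGTCA, was found in the *Areg* window, with its first base 61 bases before the RefSeq start. In windows from 250 bases before to 50 after the start it was present in 1.79% of 32851. The core motif of CRX and other OTX-type homeodomains, TAATCC, was searched on both strands of the same windows. None of the 6 members whose window was counted (*Areg*, *Tgfa*, *Btc*, *Egfr*, *Erbb2* and *Adam17*) held it, against 7.06% of all windows. The AP-1 motif TGANTCA was in none of the 6 either, against 7.81% of all windows. The CRE and the AP-1 motif were chosen after the expression values had been seen, and a match or its lack is a description of these letters only. *Hbegf*, *Ereg*, *Nrg1* and *Erbb3* were not part of this count.

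The first question was whether the ligands differ between cells with metatherian *CRX* and control cells. All 5 ligands of the EGF receptor had a higher mean with metatherian *CRX*, with log2 fold changes from 0.64 to 3.14. In 4 of them, all but *Ereg*, the metatherian *CRX* libraries lay wholly above control, as did 11.1% of the 10100 genes tested. None of the 10 members passed the threshold of 0.05 on the adjusted p (quasi-likelihood test of edgeR, Benjamini-Hochberg), where 0.0297% of genes were called. At an unadjusted p under 0.05, 4 members passed, where 19.5% of genes did. *Areg*, *Tgfa* and *Btc* were on the higher side, as were 9.04% of genes, and *Erbb2* was on the lower, as were 10.5%. *Btc* was among the genes tested only through its level with metatherian *CRX*, so it had to differ. Without it, 4 of 4 ligands had a higher mean, 3 of 4 lay wholly above control, and 3 members had an unadjusted p under 0.05. *Areg*, at 1.63 FPKM in control, was tested only through the *CRX* groups (6.32 FPKM with eutherian and 10.1 with metatherian *CRX*). These counts are therefore not free of the filter on level. *Hbegf*, *Areg*, *Tgfa* and *Btc* are also in gene lists that the study drew from these libraries, so that their direction here is not independent evidence. For *Hbegf* the study also reports qPCR on repeated transfections, in which it rose with metatherian *CRX* and not with eutherian *CRX*. Nothing in the labels says that replicates came from separate cultures, so p-values measure the spread between these libraries, which may be technical.

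**Figure D1:**
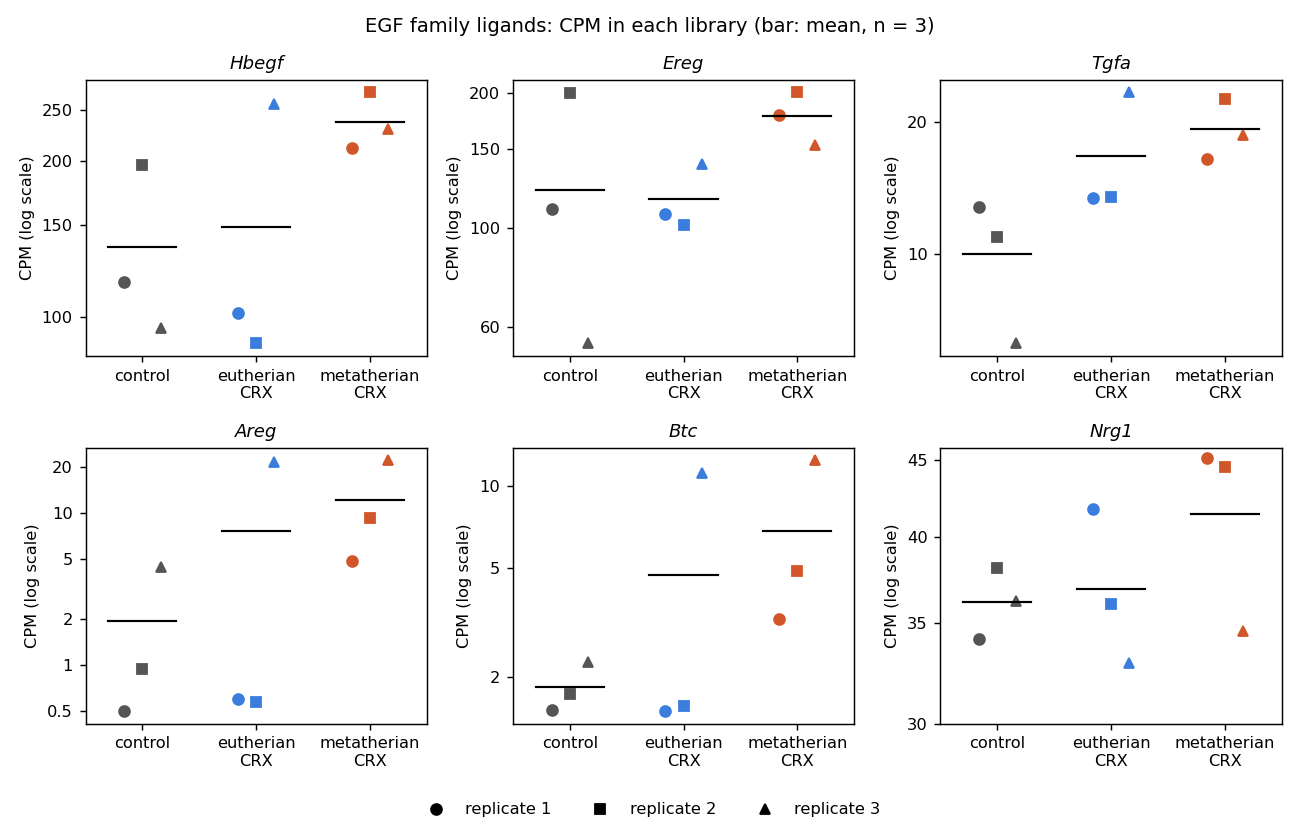
CPM (log scale) of the 6 ligands in each of the 9 libraries, with a point per library, a shape per replicate number and a bar at the mean of 3. Metatherian *CRX* libraries lie above every control library for *Hbegf*, *Tgfa*, *Areg* and *Btc*, and eutherian *CRX* replicate 3 (triangle) lies far above its other replicates for *Areg* and *Btc*.

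*Hbegf* (chr18:36504927-36515805) stood at 117, 196 and 94.9 CPM in control, 101, 88.7 and 257 with eutherian *CRX*, and 212, 271 and 230 with metatherian *CRX*. The metatherian *CRX* libraries were all above the control libraries, while eutherian *CRX* replicate 3 was above metatherian *CRX* replicates 1 and 3 and below replicate 2. The control mean was 136 ± 53.3, beside 149 ± 93.9 with eutherian *CRX* and 238 ± 30.4 with metatherian *CRX* (SD, n = 3). The log2 fold change of metatherian *CRX* against control was 0.80 (SE 0.43, 95% interval -0.22 to 1.82) with an adjusted p of 0.35 by edgeR, so that the difference was not called. It was 0.43 without control replicate 3 and 1.25 without control replicate 2. For eutherian *CRX* against control it was 0.07 (SE 0.44, 95% interval -0.98 to 1.13) with an adjusted p of 0.98 by edgeR. Against the same-numbered control, eutherian *CRX* replicates 1 and 2 differed by -0.20 and -1.14 on the log2 scale and replicate 3 by 1.44, and without replicate 3 the fitted value was -0.56. Metatherian against eutherian *CRX* gave 0.73 (SE 0.44, 95% interval -0.31 to 1.76) with an adjusted p of 0.57 by edgeR. Without eutherian *CRX* replicate 3 this became 1.43 with an adjusted p of 0.045 by edgeR, in a fit that called 3.47% of genes.

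*Areg* encodes amphiregulin, a low-affinity ligand of the EGF receptor. It stood at 0.499, 0.940 and 4.42 CPM in control (26, 86 and 309 counts), 0.599, 0.576 and 21.6 with eutherian *CRX* (48, 39 and 1630 counts), and 4.83, 9.34 and 22.3 with metatherian *CRX* (386, 704 and 1467 counts). In each group replicate 3 was the highest, at 6.15 times the mean of the other replicates in control, 36.7 times with eutherian *CRX* and 3.15 times with metatherian *CRX*. The metatherian *CRX* libraries still lay above every control library and above eutherian *CRX* replicates 1 and 2. The log2 fold change of metatherian *CRX* against control was 3.14 (SE 0.74, 95% interval 1.39 to 4.89) with an adjusted p of 0.11 by edgeR, and the same-numbered differences were 3.21, 3.27 and 2.33. Without eutherian *CRX* replicate 3 it was 2.93 with an adjusted p of 0.0064, and without metatherian *CRX* replicate 3 it was 3.76 with an adjusted p of 0.035 (edgeR), so *Areg* was called in both of these fits, in which 8.83% and 4.92% of genes were. For eutherian *CRX* against control the value was 1.00 (SE 0.74, adjusted p 0.80, edgeR), with same-numbered differences of 0.25, -0.68 and 2.28, and -0.43 without eutherian *CRX* replicate 3. Metatherian against eutherian *CRX* gave 2.13 (SE 0.74, adjusted p 0.36, edgeR), and 3.36 with an adjusted p of 0.016 without eutherian *CRX* replicate 3. The level filter, a mean FPKM above 2 in at least 1 group, bears on these calls. *Areg* passed it through both *CRX* groups in the fit of all libraries, with eutherian *CRX* by replicate 3 alone (0.499, 0.480 and 18.0 FPKM). Without that library it passed through metatherian *CRX* alone, so that it had to be higher there. In the same fits without the level filter, tried after the values had been seen, the adjusted p was 0.0054 against control and 0.014 between the *CRX* groups (edgeR).

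*Btc*, which encodes betacellulin, a ligand of both EGFR and ERBB4, was likewise highest in replicate 3 of each group. It stood at 1.52, 1.73 and 2.26 CPM in control, 1.497, 1.57 and 11.1 with eutherian *CRX*, and 3.26, 4.88 and 12.4 with metatherian *CRX*. All metatherian *CRX* libraries lay above all control libraries, and eutherian *CRX* replicate 3 lay far above the other replicates of its group. Metatherian *CRX* against control gave a log2 fold change of 1.61 (SE 0.47, 95% interval 0.49 to 2.73) with an adjusted p of 0.15 by edgeR, and 1.71 with an adjusted p of 0.022 without eutherian *CRX* replicate 3. Eutherian *CRX* against control gave 0.75 (SE 0.48, adjusted p 0.76, edgeR), and metatherian against eutherian *CRX* gave 0.86 (SE 0.46, adjusted p 0.52, edgeR). Without eutherian *CRX* replicate 3 these became 0.13 and 1.59. Leaving out any single library gave 0.13 to 1.14 for the first, which was 0.16 without control replicate 3 and 1.14 without eutherian *CRX* replicate 2, and 0.50 to 1.59 for the second, which was 0.50 without eutherian *CRX* replicate 2. *Btc* passed the level filter through the metatherian *CRX* group alone, at 2.39 FPKM against 0.638 in control and 1.65 with eutherian *CRX*. The same held without eutherian *CRX* replicate 3, where the adjusted p was 0.018 with no level filter (edgeR). Without metatherian *CRX* replicate 3, *Btc* was no longer tested.

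Markers of epithelial cells, which commonly express amphiregulin, were read beside these values. The epithelial marker *Krt18* stood at 0.269, 0.361 and 3.01 CPM in control, 0.0998, 0.221 and 11.8 with eutherian *CRX*, and 1.03, 1.54 and 8.22 with metatherian *CRX*, so that it was high in the same libraries as *Areg* and *Btc*. The 7 epithelial markers summed to 7.85 to 16.2 CPM in control, 8.56 to 30.7 with eutherian *CRX* and 18.6 to 26.1 with metatherian *CRX*, and *Krt19* supplied most of that sum. The other 5 (*Epcam*, *Cdh1*, *Krt5*, *Krt14* and *Krt8*) stayed at or below 0.486 CPM in every library. Macrophage markers summed to 12.01 to 43.9 CPM in control, 5.24 to 24.4 with eutherian *CRX* and 5.08 to 11.2 with metatherian *CRX*. Endothelial markers (8.11 to 17.8 CPM) and skeletal muscle markers (4.55 to 18.4 CPM, with *Myf5* at 0 in every library) were as low. Markers of the Schwann or melanocyte lineage summed to 21.2 to 25.6 CPM in control, 20.6 to 31.9 with eutherian *CRX* and 24.7 to 45.4 with metatherian *CRX*. The part of these values in the ligand results was not tested.

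*Tgfa* encodes transforming growth factor alpha, the ligand closest in action to EGF itself. It stood at 12.8, 10.9 and 6.24 CPM in control, 13.4, 13.5 and 23.4 with eutherian *CRX*, and 16.5, 22.7 and 18.7 with metatherian *CRX*. Both *CRX* groups lay wholly above control and overlapped each other, and 6.19% of genes lay wholly above control with eutherian *CRX*. *Tgfa* was the one EGF receptor ligand that was higher with eutherian *CRX* in all 3 same-numbered pairs, as were 16% of genes. In log2 terms the difference from control was 0.94 with metatherian *CRX* (SE 0.35, 95% interval 0.12 to 1.77, adjusted p 0.21, edgeR) and 0.75 with eutherian *CRX* (SE 0.35, 95% interval -0.09 to 1.59, adjusted p 0.64, edgeR). Without control replicate 3 these became 0.58 and 0.33, and without eutherian *CRX* replicate 3 the second was 0.32. The direct difference between the *CRX* groups was 0.20 (SE 0.34, 95% interval -0.62 to 1.01, adjusted p 0.87, edgeR), and 0.69 without eutherian *CRX* replicate 3.

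*Ereg* encodes epiregulin, which binds EGFR and ERBB4. It stood at 110, 200 and 55.3 CPM in control, 108, 102 and 139 with eutherian *CRX*, and 179, 201 and 153 with metatherian *CRX*. Control replicate 2 reached the metatherian *CRX* level, while the metatherian *CRX* libraries lay wholly above those of eutherian *CRX*, as for 6.25% of genes. Its log2 fold change was 0.64 for metatherian *CRX* against control (SE 0.38, adjusted p 0.40, edgeR), 0.07 for eutherian *CRX* against control (SE 0.38, adjusted p 0.98, edgeR) and 0.56 for metatherian against eutherian *CRX* (SE 0.37, adjusted p 0.61, edgeR). The first was 0.22 without control replicate 3 and 1.14 without control replicate 2. Without eutherian *CRX* replicate 3 the second was -0.34 and the third 1.05, and without eutherian *CRX* replicate 2 the third was 0.24.

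*Nrg1* (chr8:31807452-32890583) encodes neuregulin 1, which binds ERBB3 and ERBB4 and not the EGF receptor. It stood at 34.2, 38.1 and 36.2 CPM in control, 41.7, 36.1 and 32.9 with eutherian *CRX*, and 45.1, 44.5 and 34.6 with metatherian *CRX*, and all groups overlapped. Its merged exons span 24871 bases, which put it below 2 FPKM, so it was tested among the 14599 genes of the wider filter, of which 0.0137%, 0.623% and 0% were called in metatherian *CRX* against control, eutherian *CRX* against control and the direct comparison. For metatherian *CRX* against control the value was 0.20 (SE 0.12, adjusted p 0.39, edgeR), and that of eutherian *CRX* against control was 0.04 (adjusted p 0.96, edgeR). Reads from 2079 of its exon bases could also belong to the overlapping gene *Gm3985*.

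Set against the controls with the same replicate number, the 5 EGF receptor ligands were higher with metatherian *CRX* in each of the 3 pairs, as were 22.3% of all genes, although *Ereg* in pair 2 was level with its control (200 and 201 CPM). With eutherian *CRX*, 2 of the 5 ligands were higher in pair 1, 1 in pair 2 and all 5 in pair 3. Between the *CRX* groups, all 5 were higher with metatherian *CRX* in pairs 1 and 2, and 3 of 5 in pair 3. Both comparisons with control use the same 3 control libraries. *Areg* and *Btc* were below the level filter in control, so among the genes tested they had to be higher in a *CRX* group. The replicate numbers were not shown to mark samples prepared together.

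**Figure D2:**
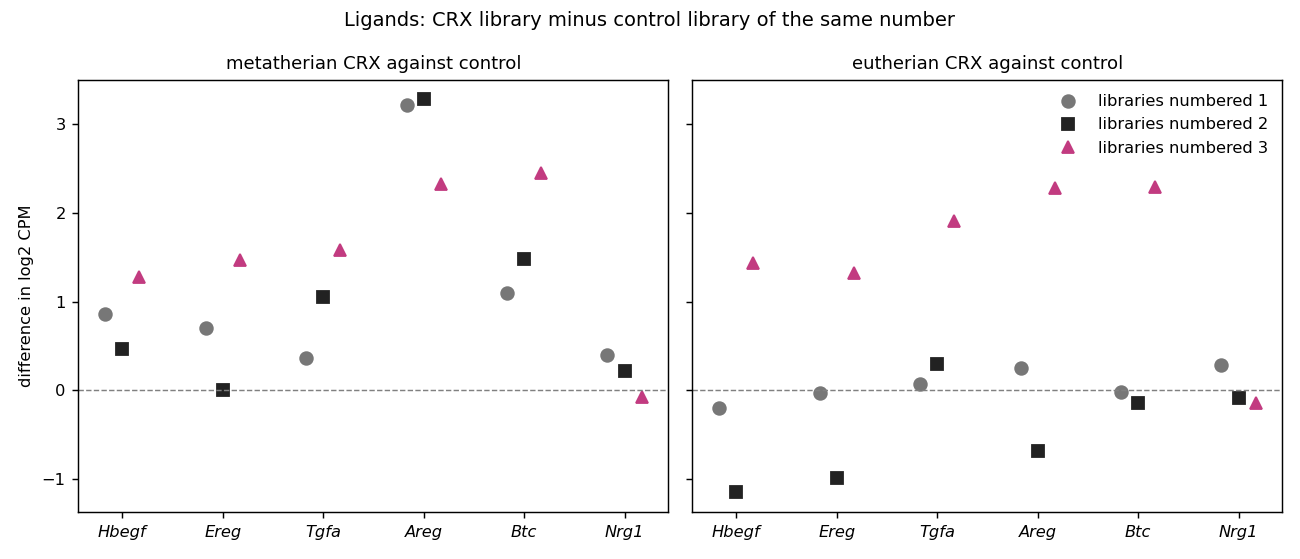
Log2 CPM of each *CRX* library minus that of the control library with the same replicate number, for the 6 ligands, with a point per pair and a line at 0. For metatherian *CRX* the points of the 5 EGF receptor ligands lie above 0 in every pair, with *Ereg* in pair 2 almost on the line, while for eutherian *CRX* their points in pair 3 stand above those in pairs 1 and 2.

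The next question was whether the receptors differed as well. *Egfr* (chr11:16752203-16913907), the receptor of the 5 ligands above, stood at 155, 161 and 150 CPM in control, 117, 136 and 145 with eutherian *CRX*, and 144, 163 and 178 with metatherian *CRX*. The eutherian *CRX* libraries lay below every control library, as for 7.79% of genes, and the metatherian *CRX* libraries overlapped both groups. It differed by 0.05 on the log2 scale for metatherian *CRX* against control (SE 0.10, 95% interval -0.19 to 0.30, adjusted p 0.81, edgeR). For eutherian *CRX* against control it was -0.24 (SE 0.10, 95% interval -0.48 to 0.01, adjusted p 0.60, edgeR), lower in 3 of 3 pairs, as were 17.3% of genes. *Egfr* was higher with metatherian than with eutherian *CRX* by 0.29 (SE 0.10, 95% interval 0.04 to 0.54, adjusted p 0.36, edgeR), with similar differences of 0.31, 0.26 and 0.30 in the 3 pairs, and 18.6% of genes were higher in all 3.

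*Erbb2* (chr11:98412484-98437716) encodes a receptor with no known ligand of its own that is the preferred partner of the other ErbB receptors. It stood at 46.8, 46.1 and 47.5 CPM in control, 47.9, 46.5 and 36.8 with eutherian *CRX*, and 41.1, 38.7 and 30.2 with metatherian *CRX*. The control libraries differed little, with an SD of 0.739 CPM around 46.8, and the metatherian *CRX* libraries were all below them, as for 12.2% of genes. The log2 fold change of metatherian *CRX* against control was -0.37 (SE 0.12, 95% interval -0.66 to -0.08) with an adjusted p of 0.18 by edgeR, and -0.23 without control replicate 3. For eutherian *CRX* against control it was -0.11 (adjusted p 0.88, edgeR), and between the *CRX* groups it was -0.26 (SE 0.12, adjusted p 0.48, edgeR). Over the 9 libraries *Erbb2* ran opposite to *Btc* (r = -0.94 on log2 CPM) and to *Areg* (r = -0.85), which is a description of libraries that share depth and scaling.

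*Erbb3* (chr10:128569368-128589501), whose product has little kinase activity and depends on a partner, was close to the detection limit. It had 13, 36 and 50 counts in control, 13, 16 and 35 with eutherian *CRX* and 20, 41 and 22 with metatherian *CRX*, or at most 0.716 CPM. All groups overlapped, and the log2 fold changes were -0.14 for metatherian *CRX* (SE 0.42, adjusted p 0.87, edgeR) and -0.63 for eutherian *CRX* (SE 0.43, adjusted p 0.73, edgeR).

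*Adam17* (chr12:21323509-21373632), the protease that releases the ligands, stood at 167, 152 and 131 CPM in control, 152, 157 and 130 with eutherian *CRX*, and 129, 125 and 157 with metatherian *CRX*. The 3 groups overlapped, with log2 fold changes of -0.13 for metatherian *CRX* (SE 0.15, adjusted p 0.67, edgeR) and -0.04 for eutherian *CRX* (adjusted p 0.97, edgeR). Exons of *Adam17* share 99 bases with *Iah1*, and those of *Erbb2* share 9 with *Mien1*.

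**Figure D3:**
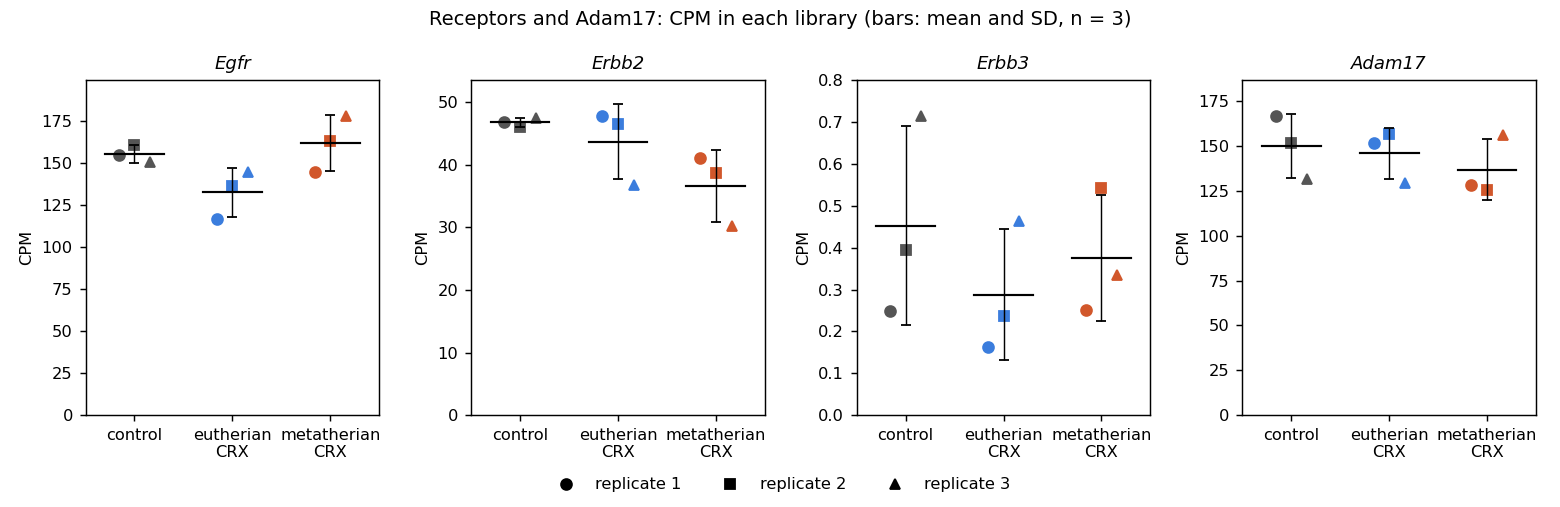
CPM of *Egfr*, *Erbb2*, *Erbb3* and *Adam17* in each of the 9 libraries, on linear axes from 0, with the mean and SD of 3. *Erbb2* lies below control in all metatherian *CRX* libraries, *Egfr* lies below control in all eutherian *CRX* libraries, and *Adam17* overlaps in all groups.

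Compared per exon length, *Hbegf* was the leading member in every group, at 57.2 ± 22.5 FPKM in the control libraries, 62.8 ± 39.5 with eutherian *CRX* and 100.1 ± 12.8 with metatherian *CRX* (SD, n = 3). In control it was followed by *Adam17* at 33.0, *Ereg* at 29.5 and *Egfr* at 24.1 FPKM, of which *Ereg* overlapped both neighbours. *Erbb2* at 9.37 FPKM stood apart from the genes above and below it. *Tgfa* at 2.36, *Areg* at 1.63 and *Nrg1* at 1.45 FPKM overlapped as neighbours, and *Btc* at 0.638 and *Erbb3* at 0.113 FPKM closed the order. With metatherian *CRX*, *Ereg* (43.0 FPKM) stood above *Adam17* (30.1 FPKM) without overlap, and *Areg* (10.1 FPKM) stood beside *Erbb2* (7.33 FPKM), which it overlapped. With eutherian *CRX* the mean of *Areg* was 6.32 FPKM, but its libraries ran from 0.480 to 18.0 FPKM and overlapped those of both *Erbb2* and *Tgfa*.

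**Figure D4:**
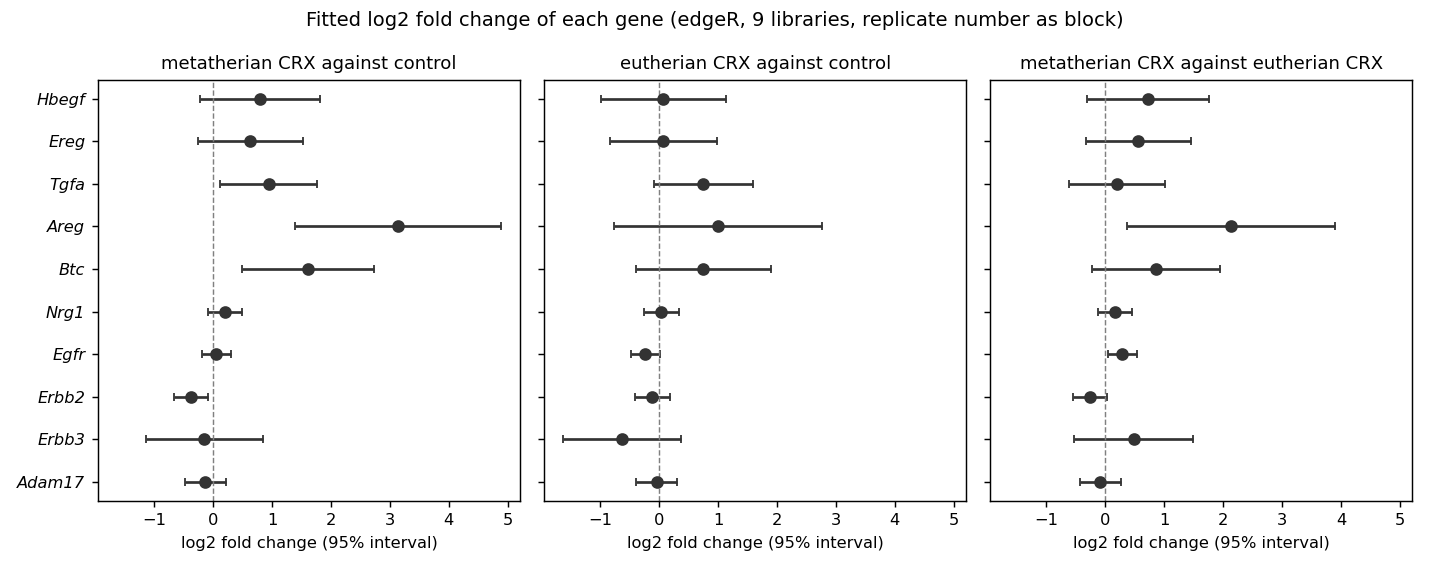
Log2 fold change of each of the 10 members with its 95% interval in the 3 comparisons, from edgeR's quasi-likelihood fit of all 9 libraries (*Nrg1* and *Erbb3* from the fit with the wider filter). The intervals of *Areg*, *Tgfa* and *Btc* lie above 0 and that of *Erbb2* below 0 for metatherian *CRX* against control, and no member passes an adjusted p of 0.05.

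Over the 10 members, eutherian *CRX* against control gave a median log2 fold change of 0.06 with 6 positive values, beside a median of 0.0013 and 50.3% positive values over all genes tested. None was called, where 0.604% of genes were called (edgeR, Benjamini-Hochberg), and 0 members passed an unadjusted p under 0.05, where 8.56% of genes did. The 6 positive values include *Hbegf*, *Areg* and *Ereg*, which turned negative without eutherian *CRX* replicate 3. The median and count for eutherian *CRX* against control thus depend on that library. Metatherian *CRX* against control gave a median of 0.42 with 7 positive values, beside -0.0080 and 48.8% positive values over all genes. Metatherian against eutherian *CRX* gave a median of 0.39 with 8 positive values, beside -0.0054 and 48.8%. No gene at all was called in the direct comparison (edgeR, 0% of 10100), and *Areg* and *Egfr* were the 2 members at an unadjusted p under 0.05, both higher with metatherian *CRX*, where 11.5% of genes passed and 7.41% on the higher side. DESeq2 on the same counts called *Areg* and *Btc* for metatherian *CRX* against control, where it called 9.94% of genes, *Areg* between the *CRX* groups, where it called 3.14%, and no member for eutherian *CRX* against control.

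Genes with the most similar pattern were listed by Pearson's r of log2 CPM over the 9 libraries, as a description. For *Hbegf* these were *Nipal1* (0.95), *Ppp1r11* (0.95), *Zdhhc5* (0.94), *Zfpm2* (0.94) and *Icmt* (0.94). For *Egfr* they were *Stxbp5* (0.88), *Dnajc9* (0.87), *Rbbp6* (0.85), *Gm21540* (0.85) and *Anp32b* (0.85). Within the family, *Hbegf* was most like *Ereg* (r = 0.81).

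The remaining family genes were barely expressed, and none of the 6 (*Egf*, *Epgn*, *Nrg2*, *Nrg3*, *Nrg4* and *Erbb4*) passed the level filter. *Erbb4*, the remaining neuregulin receptor, had 32, 59 and 100 counts in control, 63, 56 and 79 with eutherian *CRX*, and 117, 171 and 83 with metatherian *CRX*. In the wider fit it differed by 0.99 for metatherian *CRX* against control (SE 0.39, adjusted p 0.22, edgeR) and by 0.94 between the *CRX* groups (SE 0.39, adjusted p 0.41, edgeR), which did not overlap. Leaving out 1 library moved the first from 0.62 (metatherian *CRX* replicate 2) to 1.43 (control replicate 3) and the second from 0.55 (metatherian *CRX* replicate 2) to 1.31 (metatherian *CRX* replicate 3). *Nrg2*, a neuregulin, differed by 0.95 for metatherian *CRX* (SE 0.43, adjusted p 0.27, edgeR), with 0.54 and 1.38 when its replicate 2 or 3 was left out, and by 0.83 for eutherian *CRX* (SE 0.43, adjusted p 0.62, edgeR). *Epgn*, the epigen gene at the end of the chromosome 5 cluster, had 22, 35 and 16 counts in control, 26, 16 and 52 with eutherian *CRX* and 44, 47 and 45 with metatherian *CRX*, with a log2 difference of 0.63 between the *CRX* groups (SE 0.47, adjusted p 0.66, edgeR). *Egf* had 34, 58 and 40 counts in control and 9, 34 and 29 with eutherian *CRX*, which gave -1.03 on the log2 scale (SE 0.49, adjusted p 0.57, edgeR), with -0.58 without control replicate 1 and -1.47 without eutherian *CRX* replicate 2.

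Genes that act on the ligands at the cell surface were read next. Of 10 genes of ectodomain shedding, 1 was called, *Adam12*, a metalloprotease that can release HB-EGF, for eutherian *CRX* against control, where 0.604% of genes were called. *Adam12* fell with eutherian *CRX*, from 24.1, 23.9 and 38.1 CPM in control to 10.9, 9.08 and 11.3, with a log2 fold change of -1.42 (SE 0.18, adjusted p 0.035, edgeR). It passed the level filter through control alone, at 3.63 FPKM against 1.32 with eutherian and 1.54 with metatherian *CRX*, so that among the genes tested it had to be lower in both. In the fit without the level filter its adjusted p was 0.032 (edgeR). With metatherian *CRX* it stood at 9.76, 8.73 and 18.1 CPM, also below every control library, at -1.27 (SE 0.18, adjusted p 0.072, edgeR). Of the 10 genes, 4, 3 and 2 had an unadjusted p under 0.05 in metatherian *CRX* against control, eutherian *CRX* against control and the direct comparison, beside 19.5%, 8.56% and 11.5% of all genes. Their median was -0.29 for eutherian and -0.10 for metatherian *CRX* against control. *Nrd1*, which encodes a cofactor of shedding, differed by 0.28 with metatherian *CRX* (SE 0.09, adjusted p 0.17, edgeR). *Adam10*, a protease that releases several EGF family ligands, and *Adam19* differed between the *CRX* groups by 0.39 (SE 0.09, adjusted p 0.28, edgeR) and 0.56 (SE 0.17, adjusted p 0.32, edgeR).

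Of 7 surface partners of the ligands none was called in any comparison (edgeR). At an unadjusted p under 0.05, 1 passed for metatherian *CRX* against control, 0 for eutherian *CRX* against control, and 1 between the *CRX* groups, where 19.5%, 8.56% and 11.5% of all genes did. That gene was *Cd44*, a hyaluronan receptor whose variants hold heparin-binding ligands. It stood at 545, 734 and 861 CPM in control, 566, 482 and 1105 with eutherian *CRX*, and 1299, 1255 and 1464 with metatherian *CRX*. The metatherian *CRX* libraries lay above all others, by 0.93 against control (SE 0.22, adjusted p 0.11, edgeR) and 0.98 against eutherian *CRX* (SE 0.22, adjusted p 0.27, edgeR). *Cd9*, a tetraspanin that binds pro-HB-EGF, differed by 0.32 (SE 0.14, adjusted p 0.27, edgeR) against control and 0.31 (SE 0.14, adjusted p 0.45, edgeR) against eutherian *CRX*. With eutherian *CRX* against control the lowest p-values were those of the syndecans *Sdc2* at -0.28 (SE 0.30, adjusted p 0.88, edgeR) and *Sdc3* at -0.18 (SE 0.28, adjusted p 0.93, edgeR).

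Downstream of the receptors, none of 19 signal transducers was called in any comparison (edgeR), and 5, 0 and 2 had an unadjusted p under 0.05 in metatherian *CRX* against control, eutherian *CRX* against control and the direct comparison, beside the same 19.5%, 8.56% and 11.5% of all genes. *Nras*, a Ras GTPase, differed by 0.39 with metatherian *CRX* against control (SE 0.08, adjusted p 0.097, edgeR) and by 0.32 between the *CRX* groups (SE 0.08, adjusted p 0.28, edgeR). *Sos2*, a Ras exchange factor, differed by 0.32 (SE 0.10, adjusted p 0.16, edgeR) and 0.27 (SE 0.10, adjusted p 0.37, edgeR). With eutherian *CRX* against control, *Pik3r1*, a PI3 kinase subunit, stood at -0.35 (SE 0.22, adjusted p 0.75, edgeR).

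Among 17 receptor inhibitors and feedback genes, *Spry1*, an inhibitor of receptor tyrosine kinase signalling to Ras, was the 1 gene called, for eutherian *CRX* against control, where 0.604% of genes were called. *Spry1* fell with eutherian *CRX*, from 21.5, 28.1 and 47.4 CPM in control to 7.55, 8.09 and 9.96, with a log2 fold change of -1.84 (SE 0.19, adjusted p 0.027, edgeR). With metatherian *CRX* it stood at 7.77, 7.89 and 16.5 CPM, at -1.61 (SE 0.18, adjusted p 0.069, edgeR). *Lrig3*, of a family of ErbB regulators, stood at -0.56 with metatherian *CRX* against control (SE 0.11, adjusted p 0.087, edgeR) and -0.25 between the *CRX* groups (SE 0.11, adjusted p 0.45, edgeR). *Cblb*, a ubiquitin ligase that acts on activated receptors, differed by 0.35 between the *CRX* groups (SE 0.13, adjusted p 0.36, edgeR). The median log2 fold change of the 17 genes was 0.43 for metatherian *CRX* against control, 0.06 for eutherian *CRX* against control and 0.35 between the *CRX* groups, with 6, 2 and 1 at an unadjusted p under 0.05, beside 19.5%, 8.56% and 11.5% of all genes. Without eutherian *CRX* replicate 3 this median was 0.44, -0.24 and 0.49 in the same order. *Errfi1*, *Lrig1* and *Lrig3* of this list are also in lists that the study drew from these libraries.

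The calls of *Adam12* and *Spry1* were lost in most fits with fewer libraries. With only the 6 libraries compared, the adjusted p was 0.071 for *Adam12* and 0.064 for *Spry1* (edgeR), and no gene was called. Leaving out 1 library at a time gave adjusted p-values from 0.025 to 0.27 for both (edgeR), and the call of *Adam12* was kept only without metatherian *CRX* replicate 3. That of *Spry1* was kept only without metatherian *CRX* replicate 2 or 3. The log2 fold changes stayed between -1.57 and -1.21 for *Adam12* and between -1.98 and -1.63 for *Spry1*. Without the replicate block the adjusted p was 0.217 for *Adam12* and 0.196 for *Spry1* (edgeR).

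Of 11 early response genes, which growth factors induce within minutes, 9 passed the filter and none was called (edgeR), with 0, 1 and 1 at an unadjusted p under 0.05 in metatherian *CRX* against control, eutherian *CRX* against control and the direct comparison. Over all genes these shares were 19.5%, 8.56% and 11.5%. *Fos*, a subunit of AP-1, stood at 16.9, 27.2 and 15.4 CPM in control, 10.7, 11.1 and 9.28 with eutherian *CRX*, and 16.3, 18.4 and 11.5 with metatherian *CRX*. It differed by -0.90 with eutherian *CRX* against control (SE 0.16, adjusted p 0.088, edgeR), by -0.36 with metatherian *CRX* against control (SE 0.16, adjusted p 0.29, edgeR) and by 0.54 between the *CRX* groups (SE 0.16, adjusted p 0.32, edgeR). *Egr3*, a zinc finger factor, stood at 6.27, 6.81 and 10.9 CPM in control, 3.74, 3.03 and 32.2 with eutherian *CRX*, and 9.92, 15.2 and 21.9 with metatherian *CRX*. It differed by 0.94 with metatherian *CRX* against control (SE 0.55, adjusted p 0.39, edgeR) and by 0.90 between the *CRX* groups (SE 0.58, adjusted p 0.60, edgeR), where it was higher with metatherian *CRX* in pairs 1 and 2 and lower in pair 3 (-0.55). *Egr1* was at -0.46 with eutherian *CRX* against control (SE 0.30, adjusted p 0.77, edgeR), and at -0.87 without eutherian *CRX* replicate 3. The median of the 9 genes was -0.09, -0.07 and 0.36 in the 3 comparisons in that order. Without eutherian *CRX* replicate 3 this median was -0.19, -0.89 and 0.79.

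Without eutherian *CRX* replicate 3 more of the pathway genes were called (edgeR). Of the 17 receptor inhibitors and feedback genes, 7 were called for metatherian *CRX* against control, where 8.83% of genes were, and 6 between the *CRX* groups, where 3.47% were. For metatherian *CRX* against control 2 shedding genes, 1 surface partner, 1 signal transducer and 1 early response gene were called as well. Between the *CRX* groups these numbers were 0, 1, 0 and 1, and no gene was called for eutherian *CRX* against control. *Egr3* was called in both comparisons, at 0.96 against control (adjusted p 0.033, edgeR) and 1.88 between the *CRX* groups (adjusted p 0.020, edgeR), and its difference for eutherian *CRX* against control went from 0.04 to -0.92. It then passed the level filter through metatherian *CRX* alone and so had to be higher there, and with no level filter its adjusted p was 0.028 and 0.017 in those comparisons (edgeR). *Cd44* was also called in both, at 0.93 (adjusted p 0.018, edgeR) and 1.25 (adjusted p 0.023, edgeR). *Sdc2*, *Sdc3* and *Pik3r1* then stood at 0.13, -0.44 and -0.13 for eutherian *CRX* against control, and *Epgn* at 1.23 between the *CRX* groups. *Nrg2* stood at 0.47 for eutherian *CRX* against control. Leaving out eutherian *CRX* replicate 2 instead gave -0.58 for *Sdc2*, 0.02 for *Sdc3*, -0.62 for *Pik3r1* and -0.13 for *Egr1* against control, and 0.23 for *Cblb*, 0.29 for *Epgn* and 0.32 for *Egr3* between the *CRX* groups. For metatherian *CRX* against control, *Egr3* was 0.51 without metatherian *CRX* replicate 2, *Fos* was -0.19 without control replicate 2, and *Cd9* was 0.49 without control replicate 3.

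**Figure D5:**
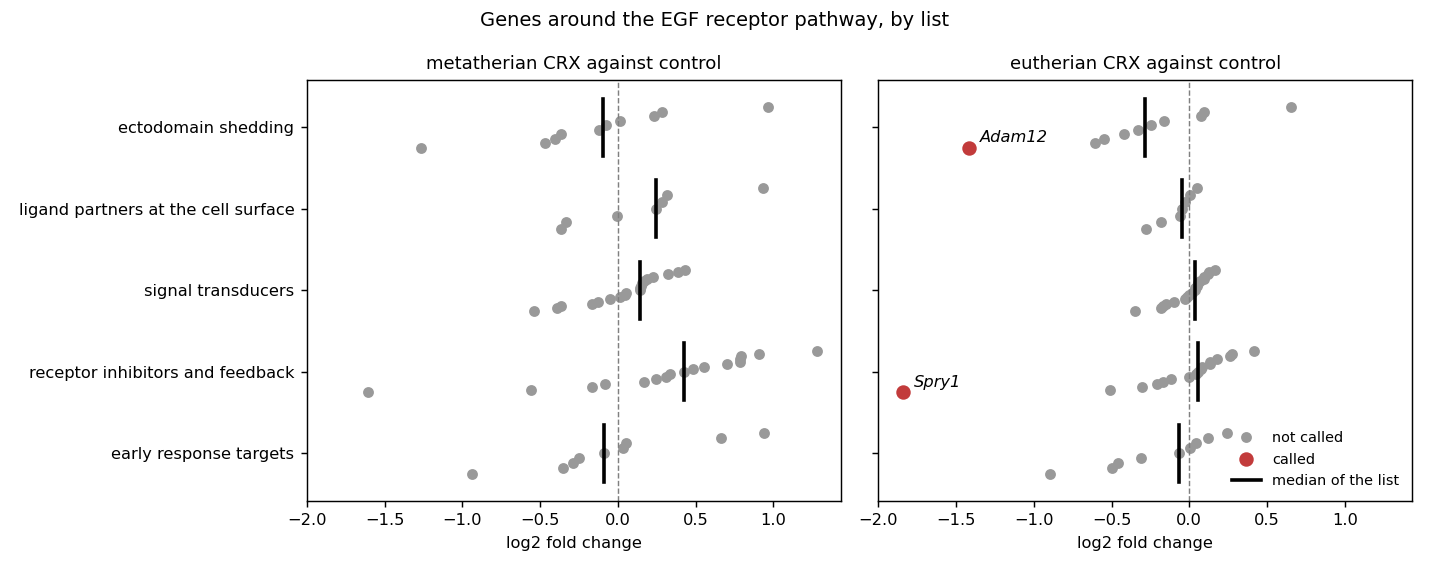
Log2 fold change of each tested gene of 5 pathway lists in both comparisons with control, with a point per gene, a bar at the median of the list, and called genes (edgeR, adjusted p under 0.05) in red. The 2 called points are *Adam12* and *Spry1*, both below 0 for eutherian *CRX* against control.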

How the data were processed

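RNA-seq of 9 libraries of MEFs, 3 per group, was analysed. The authors aligned reads to mm10 (GRCm38) with STAR and deposited raw counts per gene and library made with featureCounts, without normalization or pooling. The annotation release and the strand option are not given in the sources used here.

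Counts were analysed in R 4.3.3 with edgeR 4.0.16. Of 22068 genes (3756 without a count and 2 names with a duplicate row), 14599 passed filterByExpr, of which 10100 had a group mean of over 2 FPKM. FPKM was computed from the counts and the merged exon length of each gene. TMM factors lay between 0.960 and 1.11. The quasi-likelihood test was fitted on all 9 libraries, blocked by replicate number, since the study states that samples were made in pairs, although not that these numbers mark the pairs, and p-values were adjusted over all genes tested (Benjamini-Hochberg, called under 0.05). *Nrg1*, *Erbb3* and the remaining family genes except *Nrg3*, which did not pass filterByExpr and was not tested, were tested among the 14599 genes. Replicate libraries differed by more than sampling noise. Chi-square over its degrees of freedom was 30.8 to 101.3 between replicates 1 and 2 of a group and 398.5 to 1175 in pairs with replicate 3.

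Deviations from the group mean correlated above 0.1 in 8 of 9 pairs with the same number (0.0034 to 0.75) and in 5 of 18 with different numbers (-0.73 to 0.72). Some pairs with different numbers were thus nearly as alike as any with the same number, so that the numbers were not shown to mark pairs.

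The genes named were the 10 members, the called genes of each pathway list (or else the 2 tested genes with the smallest p), and the 5 genes most like *Hbegf* and *Egfr*. 1 gene that this rule names is not reported here. *Krt18*, *Krt19*, *Vim*, *Col1a1*, *Pdgfra*, *S100a4* and the comparisons of *Areg* with *Btc* were named after their values were seen. The members, lists and tests were chosen with earlier results of these data known. Marker lists covered fibroblast, epithelial, macrophage, endothelial, Schwann or melanocyte and skeletal muscle cells. Alternatives were no block, upper-quartile and relative-log-expression factors, 3 other filters, DESeq2 1.42.0 with either the counts or rounded FPKM as input, limma 3.58.1 voom with quality weights, only the 6 libraries compared, thinned counts and each library left out. On simulated counts of metatherian *CRX* against control (10100 genes, 200 changed by a log2 fold change of 2), the quasi-likelihood test recovered 195 with 13 false calls, DESeq2 197 with 41 and voom 196 with 11. The simulated counts held no shift shared by the genes of a replicate, such as that of replicate 3. These numbers therefore do not give the rate of true or false calls in the data.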

Additional observations from a re-analysis of the deposited data

Results flagged for a closer look

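*Adam10*, which encodes a protease that releases several EGF family ligands, was picked out because its metatherian *CRX* libraries all lay above the control mean of 241 CPM and its eutherian *CRX* libraries all lay below it. The group means were 284 CPM with metatherian *CRX* and 215 CPM with eutherian *CRX*, and the direct test gave a log2 difference of 0.39 (SE 0.09) with an adjusted p of 0.28 (edgeR).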

How the results depend on the processing

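Among the 10 members, 0 were called in each comparison (edgeR), and this count held under other scaling factors, the other filters, thinned counts and DESeq2 on rounded FPKM, which gave no adjusted p for some members, *Areg* among them. Under the filter of 5 FPKM only 6 members were tested, without *Tgfa*, *Btc*, *Nrg1* and *Erbb3*. Without the replicate block it was also 0 in each comparison, with 2, 1 and 1 members at an unadjusted p under 0.05, and over all genes the calls went from 3, 61 and 0 to 0 in each, so that the calls of *Adam12* and *Spry1* were lost too. For metatherian *CRX* against control, 2 members were called by DESeq2 on the counts, 7 by voom with quality weights, which called 41.9% of all genes, and 1 with only the 6 libraries compared, and leaving out single libraries gave 0 to 2. For eutherian *CRX* against control, voom called 1 (*Egfr*), where it called 7.81% of genes, and leaving out single libraries gave 0. Between the *CRX* groups, DESeq2 called 1 and voom 7 of 10 where it called 32.9% of genes, and leaving out single libraries gave 0 to 2. Voom gave *Hbegf* 0.69 (adjusted p 0.016) for metatherian *CRX* against control, -0.34 for eutherian *CRX* against control and 1.02 (adjusted p 0.0054) between the *CRX* groups.

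Leaving out all libraries of 1 number was added after the values had been seen. Without the libraries numbered 3, 3 members were called for metatherian *CRX* against control (*Areg*, *Tgfa* and *Adam17*, with 22.2% of genes) and 5 between the *CRX* groups (*Hbegf*, *Areg*, *Ereg*, *Egfr* and *Adam17*, with 22.5% of genes). *Areg* then passed the level filter through metatherian *CRX* alone, and with no level filter its adjusted p was 0.00018 and 0.00022 (edgeR). *Hbegf* then stood at -0.68 for eutherian *CRX* against control and at 1.32 (adjusted p 0.0053, edgeR) between the *CRX* groups. Leaving out single libraries moved *Hbegf* between 0.43 and 1.25 for metatherian *CRX* against control, between -0.56 and 0.56 for eutherian *CRX* against control (-0.41 without control replicate 3) and between 0.29 and 1.43 between the *CRX* groups.

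Signs also turned for other differences that were not called in the fit of all 9 libraries. For metatherian *CRX* against control, *Egfr* became -0.030 with voom, -0.042 without the libraries numbered 3 and ran from -0.039 to 0.14 without 1 library. *Erbb3* became 0.20 and 0.28 under the same settings and ran from -0.54 to 0.28. For eutherian *CRX* against control, *Areg* became -0.25 without the libraries numbered 3 and ran from -0.43 to 1.67 without 1 library. *Ereg* became -0.072 without the block, -0.25 with voom, -0.52 without the libraries numbered 3 and ran from -0.40 to 0.54 without 1 library. *Erbb2* became 0.017 without the libraries numbered 3 and ran from -0.19 to 0.027 without 1 library. *Nrg1* became -0.084 and *Adam17* 0.015 without the libraries numbered 1, and ran from -0.069 to 0.14 and from -0.14 to 0.052 without 1 library. Between the *CRX* groups, *Tgfa* became -0.061 and *Adam17* 0.035 without the libraries numbered 2, and ran from -0.041 to 0.69 and from -0.28 to 0.013 without 1 library. *Adam12* became -0.13 with voom, -0.11 without the libraries numbered 3 and ran from -0.053 to 0.31 without 1 library. The cause was not tested.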
